A study of Mus musculus with 64 samples.

Results

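The right ventricles (RV) of 13 knockout mice that had received an early dose of a Pkp2 gene therapy vector were compared by dose, 5 at the high dose (AAV_1E14) and 8 at the low dose (AAV_3E13). They were chosen by label alone, as every RV library of an animal with either early dose, and they are 13 of the 64 libraries of the series. All 13 mice were C57BL6 animals with floxed Pkp2 alleles and a tamoxifen-inducible Cre recombinase driven by the cardiac alpha-myosin heavy chain promoter, which deletes the gene in cardiomyocytes and leaves it intact in the other cells of the heart. The vector, AAV9:mPkp2, carried mouse Pkp2 behind a cardiac troponin T promoter and was given once by retro-orbital injection, at 1e+14 vector genomes per kg in AAV_1E14 and 3e+13 in AAV_3E13. The labels place the dose 1 week before tamoxifen, whereas parts of the study's own text place it after. Hearts were collected 51 weeks after tamoxifen, so both groups hold only animals that were alive at that time. Right ventricles of 9 wild-type (WT) littermates, which had the floxed alleles without Cre and received the HBSS vehicle, were collected at the same week and are given as a level beside the 2 doses. The question was which RV genes differed between a high and a low level of restored Pkp2.

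Plakophilin-2, the product of Pkp2, is an armadillo-repeat protein of the desmosome, the junction that couples cardiomyocytes mechanically at the intercalated disc and anchors their intermediate filaments. It also helps to hold the gap junction protein connexin 43 at the disc. Loss of plakophilin-2 is a common inherited cause of arrhythmogenic right ventricular cardiomyopathy, in which muscle of the right ventricle is lost and replaced by fibrous and fatty tissue and ventricular arrhythmias arise. Adult myocardium burns mostly fatty acids, and a failing ventricle is known for lower expression of mitochondrial genes, for expression of fetal genes such as the natriuretic peptides and Myh7, and for activated fibroblasts that lay down matrix.

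The 13 RV libraries held 8.44 M to 12.4 M estimated counts, where M stands for 1e+06. After 37 mitochondrially encoded genes had been left out, 7.39 M to 9.14 M counts remained in AAV_1E14 and 5.81 M to 9.14 M in AAV_3E13. Expression is given below as CPM, counts per 1e+06 of these counts after TMM scaling, and an animal is named by its group and number, as in AAV_1E14_2034. Cardiomyocyte markers (Myh6, Tnnt2, Tnni3, Ttn, Actc1 and Ryr2) and the ventricular light chains Myl2 and Myl3 were high in all 13 libraries, and the summed atrial markers (Myl7, Myl4, Sln and Bmp10) were at 1.86 to 4.48 CPM in AAV_1E14 and 1.19 to 19.8 CPM in AAV_3E13. Markers of fat, mesothelium and skeletal muscle were near 0. By Xist and Y-linked genes each group held both sexes, 2 of 5 female in AAV_1E14 and 3 of 8 in AAV_3E13. Pairs of these libraries correlated at 0.893 to 0.949 across genes in log2 CPM. The leading principal component of the 13 libraries, with 18.1% of their variance, separated the doses, as AAV_1E14 lay at 16.9 to 46.8 and AAV_3E13 at -49.7 to 3.95.

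Pkp2 itself (GRCm39 chr16:16031144-16090586, plus strand) checked the dose labels. In AAV_1E14_2034, AAV_1E14_2043, AAV_1E14_5726, AAV_1E14_5822 and AAV_1E14_5825, the order in which the 5 values of that group are given throughout, Pkp2 was at 1228, 1174, 497, 1845 and 1768 CPM. In AAV_3E13 the lowest, median and highest animals were at 154, 297 and 399 CPM. The groups did not overlap, and AAV_1E14_5726 stood well below the other 4 high-dose animals, nearer to the low-dose range than to them. The difference in mean log2(CPM + 1) was 2.04, higher in AAV_1E14 (exact two-sided permutation test, p = 0.000777, the smallest that 5 against 8 animals can give), and stayed between 1.88 and 2.35 when any 1 animal was left out. WT right ventricles ranged from 123 to 185 CPM, so that all 5 high-dose animals and 7 of 8 low-dose animals lay above every WT animal, while the remaining low-dose animal, AAV_3E13_5768, lay within the WT range. Reads from the vector and from the animal's own Pkp2 were counted together and cannot be told apart in these data. In the edgeR fit across all genes the log2 fold change was 2.11 (SE 0.26, adjusted p = 0.00112). In an unequal-variance test on log2(TPM + 1) over all genes, which is the study's kind of test, the difference was 1.89 with an adjusted p of 0.0694.

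Of the other desmosomal genes, 1 was called. The list held 13 desmosomal genes, of which 9 passed the filter on low counts and 2 were called, Pkp2 and Dsg2. Of the 9, 8 had a positive log2 fold change (median 0.22). In the left ventricles of the same animals 5 of 9 were called higher and 1 lower (median 0.47). Dsg2, which encodes the desmosomal cadherin desmoglein-2, was at 338, 351, 260, 308 and 298 CPM in AAV_1E14, against a lowest of 170, a median of 187 and a highest of 269 CPM in AAV_3E13. It rose by 0.60 on the log2 scale (SE 0.11, edgeR adjusted p = 0.00557), and a single high-dose animal, again AAV_1E14_5726, lay within the low-dose range. Dsc2, the partner cadherin desmocollin-2, differed by 0.31 (SE 0.12, adjusted p = 0.129). The cytoplasmic linkers desmoplakin (Dsp) and plakoglobin (Jup), named here for their place in the junction after their values were seen, differed by 0.22 (SE 0.10, adjusted p = 0.175) and 0.15 (SE 0.12, adjusted p = 0.425). Of 20 further genes of the intercalated disc 1 was higher and 1 lower, the same share as among all genes tested (5.02% higher and 4.95% lower): Ctnna3, which encodes alpha-T-catenin, rose by 0.40 (SE 0.09, adjusted p = 0.0132), and Xirp2, an actin-binding protein of the disc, fell by 0.57 (SE 0.16, adjusted p = 0.0362), a call that was lost in 12 alternatives, including the removal of any 1 high-dose animal and of AAV_3E13_2033, AAV_3E13_2048, AAV_3E13_5759 or AAV_3E13_5768.

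Across the transcriptome, many matrix genes were called lower and many nuclear genes of mitochondrial metabolism higher at the high dose, as were 6 of 23 calcium cycling genes and 9 of 22 sodium and potassium channel genes. Of 13456 genes tested with edgeR's quasi-likelihood test, 1341 passed at an adjusted p under 0.05, or 9.97%. They split into 675 higher (5.02%) and 666 lower (4.95%) in AAV_1E14. The falls were larger: called genes that were lower had a median log2 fold change of -0.75, with 201 genes changed more than 2-fold, whereas called genes that were higher had a median of 0.49, with 15 changed more than 2-fold. The 5 and 8 libraries did not overlap for 641 genes (4.76%), 357 higher (2.65%) and 284 lower (2.11%). The count of calls depended on animals of the smaller group, since 703 genes were called without AAV_1E14_2034, 703 without AAV_1E14_5822 and 773 without AAV_1E14_5726. The unequal-variance test on log2(TPM + 1) called 508 genes with another balance, 150 higher and 358 lower. It also scales each library to its TPM total in place of TMM, and its median over all genes was -0.12, beside -0.03. The TMM factors behind the CPM ran from 0.877 to 0.966 in AAV_1E14 and from 0.967 to 1.06 in AAV_3E13. With RLE factors in edgeR the split was 714 higher and 655 lower. The part that scaling had in the other balance was not tested. In bulk tissue, fewer cells of a type and less RNA per cell cannot be told apart, which holds for every gene below.

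**Figure D1:**
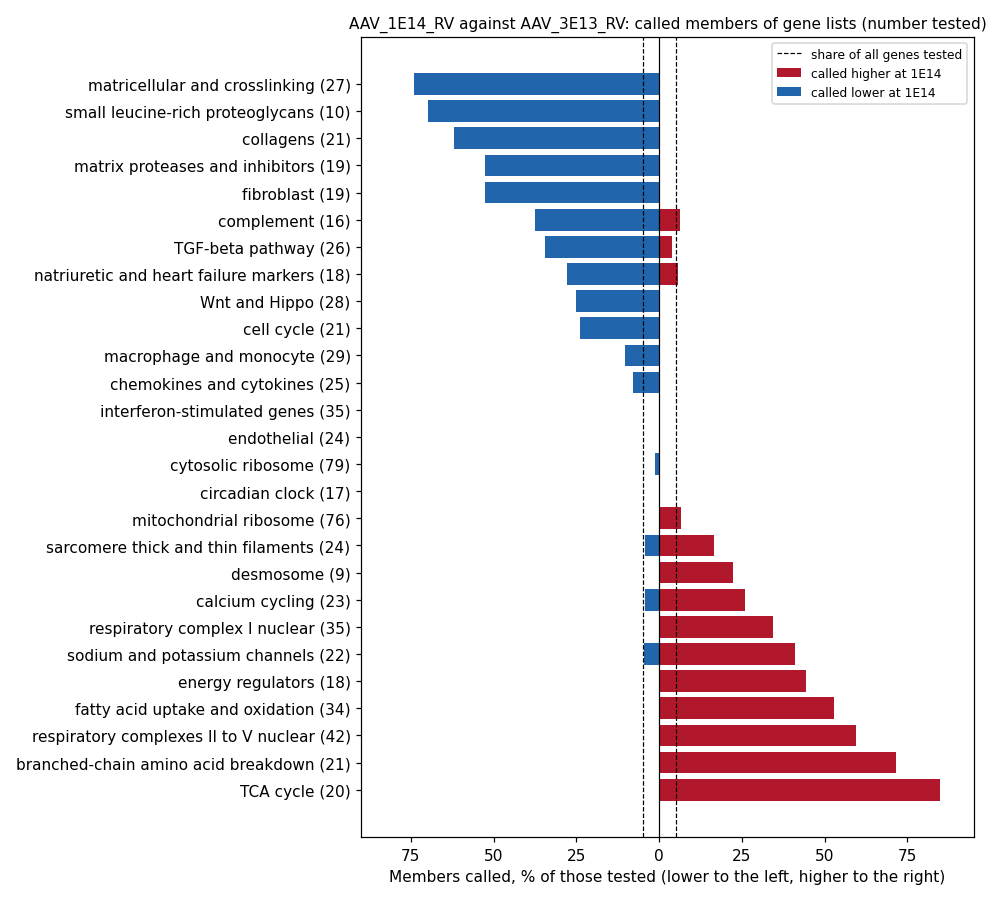
Share of the tested members of each gene list that were called higher (red, to the right) or lower (blue, to the left) in AAV_1E14_RV than in AAV_3E13_RV, in percent, with the number tested in brackets. Dashed lines mark the share of all genes called higher (5.02%) and lower (4.95%). Matricellular and crosslinking genes reached 20 of 27 lower and the TCA cycle 17 of 20 higher.

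Matricellular proteins and crosslinkers of the matrix were the list with the highest share of lower genes. Of its 28 genes 27 were tested, and 20 were lower and 0 higher, with a median log2 fold change of -1.11 beside -0.03 over all genes tested. Of the collagens 13 of 21 were lower and 0 higher (median -0.80), and of the small leucine-rich proteoglycans 7 of 10 were lower and 0 higher (median -0.73). Of the matrix proteases and their inhibitors, 10 of 19 were lower and 0 higher (median -0.62). These shares stand beside the 4.95% of all genes that were called lower. The matricellular count stayed between 18 and 21 when any 1 animal was left out. The collagen count dropped to 8 without AAV_1E14_5822, and the protease count to 6 without AAV_1E14_2034 or AAV_1E14_5822. Under the unequal-variance test on log2(TPM + 1), 4 collagens and 5 proteases or inhibitors remained lower.

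Cilp, which encodes the cartilage intermediate layer protein and is made in the heart by fibroblasts that answer injury, had the smallest p of that list. It was at 9.36, 6.73, 9.92, 9.58 and 7.12 CPM in AAV_1E14, against a lowest of 45.2, a median of 98.8 and a highest of 181 CPM in AAV_3E13. Every high-dose animal was thus far below every low-dose animal, and the high-dose values lay within the range of WT hearts, which began at 5.56 CPM. The log2 fold change was -3.53 (SE 0.31, adjusted p = 5.36e-05). Ltbp2, a latent TGF-beta binding protein of elastic fibers, was at 1.32, 2.52, 5.93, 4.52 and 3.43 CPM in AAV_1E14, against 12.3, 47.5 and 104 CPM for the lowest, median and highest of AAV_3E13. These groups did not overlap either (log2 fold change -3.80, SE 0.53, adjusted p = 0.00134). Periostin, or Postn, is the classical marker of an activated cardiac fibroblast. Its 5 high-dose values of 87.9, 72.0, 65.2, 74.1 and 76.4 CPM were close together, and the low-dose animals spread from 130 over a median of 321 to 555 CPM (log2 fold change -2.05, SE 0.31, adjusted p = 0.00197).

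**Figure D2:**
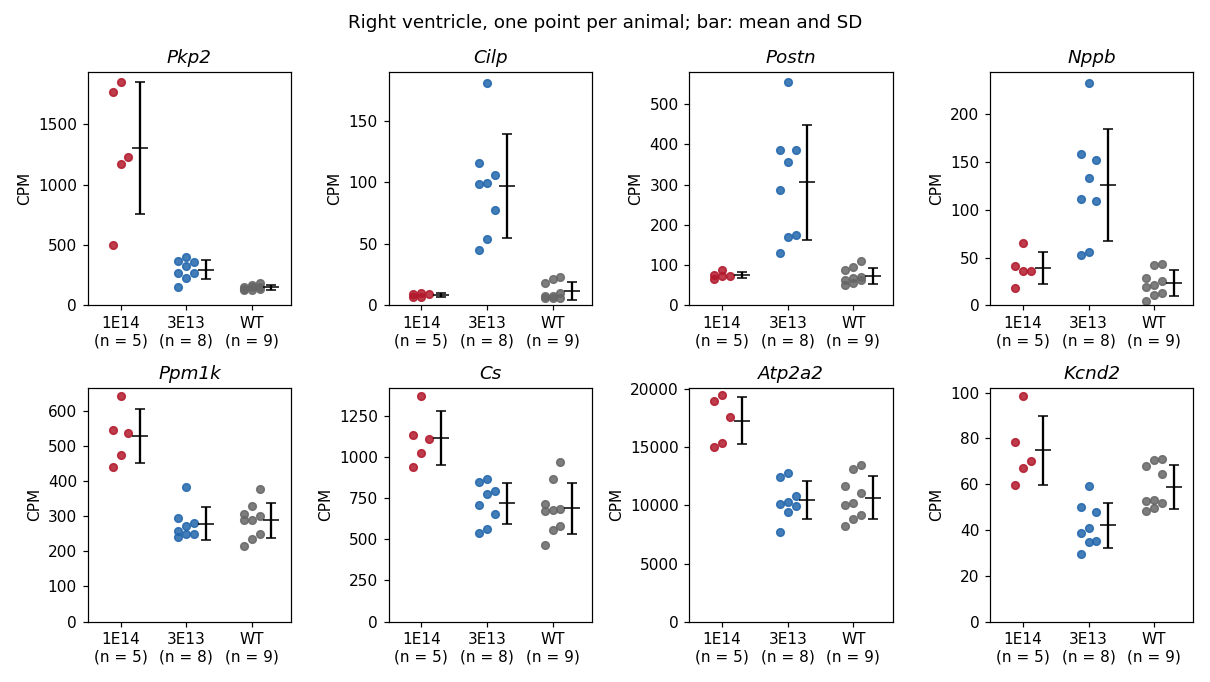
CPM of 8 genes in each right ventricle (1 point per animal) of AAV_1E14, AAV_3E13 and WT, with the mean and SD drawn at the right of each group. For Cilp and Postn the high-dose animals sit with WT below the low-dose animals, whereas for Ppm1k, Cs and Atp2a2 the low-dose animals sit with WT and the high-dose animals lie above all low-dose animals.

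The fibrillar collagens changed by less than these marker genes. Col5a2 fell by 1.43 on the log2 scale (SE 0.19, adjusted p = 0.0012), with 29.7, 31.5, 28.4, 19.6 and 25.3 CPM in AAV_1E14 and a range of 41.3 to 88.7 CPM in AAV_3E13. Col8a1, a short-chain collagen, fell by 1.58 (SE 0.21, adjusted p = 0.00128). For both genes the groups stood apart. The chains of type I collagen differed in overlap. Col1a2 was between 66.6 and 105 CPM in AAV_1E14 and between 126 and 222 CPM in AAV_3E13, without overlap (log2 fold change -1.09, SE 0.15, adjusted p = 0.00129). Col1a1 overlapped: it was at 27.2, 60.5, 41.5, 19.0 and 36.0 CPM in AAV_1E14, against 51.3, 95.9 and 117 CPM for the lowest, median and highest of AAV_3E13, with AAV_1E14_2043 inside the low-dose range (log2 fold change -1.35, SE 0.25, adjusted p = 0.00513). Col3a1 was at 149, 161, 192, 84.2 and 121 CPM in AAV_1E14, against 182, 422 and 620 CPM in AAV_3E13, with AAV_1E14_5726 just inside the low-dose range (log2 fold change -1.54, SE 0.29, adjusted p = 0.00546). Biglycan (Bgn), a proteoglycan that binds collagen, fell by 1.58 (SE 0.21, adjusted p = 0.00125) and versican (Vcan) by 1.56 (SE 0.26, adjusted p = 0.00286), both without overlap. Fibronectin (Fn1), the scaffold on which collagen is assembled, fell by 0.88 (SE 0.12, adjusted p = 0.00152), and the collagen crosslinking enzyme Loxl3 by 1.60 (SE 0.23, adjusted p = 0.00183).

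Enzymes that cut and trim the matrix fell with it. Adamts2, which removes the amino-terminal propeptide of fibrillar procollagens, was between 15.4 and 23.8 CPM in AAV_1E14 and between 29.6 and 51.3 CPM in AAV_3E13 (log2 fold change -1.10, SE 0.15, adjusted p = 0.00131). The gelatinase Mmp2 fell by 0.85 (SE 0.16, adjusted p = 0.00651). Timp1, an inhibitor of matrix metalloproteinases that the study also followed by RT-qPCR, was low throughout, at 1.05, 0.42, 1.69, 0.53 and 1.23 CPM in AAV_1E14 and at 2.96, 4.48 and 26.6 CPM for the lowest, median and highest of AAV_3E13. Its groups did not overlap (log2 fold change -3.10, SE 0.65, adjusted p = 0.00915).

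Summed over all members found, tested or not, the matricellular and crosslinking genes came to 1318 to 1621 CPM in AAV_1E14, against 2063 to 3805 CPM in AAV_3E13, and WT hearts ranged from 1307 to 1844 CPM. The collagens came to 737 to 1273 CPM in AAV_1E14, against 1373 to 2871 CPM in AAV_3E13, with 1144 to 2098 CPM in WT. For the matricellular sum the high dose thus reached no higher than WT and every low-dose animal was above WT, whereas the collagen sums of both doses overlapped WT. The high-dose median for the collagens, 1137 CPM, lay below the lowest WT animal, and the low-dose median of 2085 CPM lay within the WT range. No test was made against WT here.

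Of 19 fibroblast genes tested 10 were lower and 0 higher (median -0.65). Of the 20 genes listed 7 also stand in a matrix list, Cilp and Postn among them, and of the 13 tested genes in no matrix list 6 were lower and 0 higher (median -0.32). The fibroblast genes called lower included Pi16, a marker of adventitial fibroblasts (-1.46, SE 0.20, adjusted p = 0.00131), Mfap4, a microfibril protein (-2.17, SE 0.35, adjusted p = 0.00259), and Meox1, a transcription factor of activated fibroblasts (-1.31, SE 0.25, adjusted p = 0.00557). Of the 4 markers of resident fibroblasts used to check the tissue, 3 were called lower, among them Pdgfra (-0.55, SE 0.12, adjusted p = 0.0137), and Tcf21 was not. The 4 summed to 917 to 1005 CPM in AAV_1E14 and 1074 to 2023 CPM in AAV_3E13. The part that the number of fibroblasts had in the matrix result was not tested.

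Of 26 genes of the TGF-beta pathway, the main signal for matrix production, 9 were lower and 1 was higher (median -0.39). Among the ligands, Tgfb2 was at 32.3, 33.5, 27.0, 30.5 and 30.1 CPM in AAV_1E14 and between 47.4 and 84.2 CPM in AAV_3E13, so that the groups were clearly apart (log2 fold change -1.06, SE 0.14, adjusted p = 0.0012). Inhba, which encodes the activin A subunit, fell by 1.76 (SE 0.34, adjusted p = 0.00651). Both signaling receptors were lower, Tgfbr1 by 0.61 (SE 0.12, adjusted p = 0.00656) and Tgfbr2 by 0.56 (SE 0.13, adjusted p = 0.0121). The exception was the co-receptor Tgfbr3, or betaglycan, at 0.27 higher (SE 0.08, adjusted p = 0.0452), a call that was lost in many of the alternative analyses. Of 28 genes of Wnt and Hippo signaling, 7 were lower and 0 higher (median -0.18), and this count dropped to 4 when AAV_1E14_2034, AAV_1E14_2043 or AAV_1E14_5822, or AAV_3E13_2029, AAV_3E13_2033 or AAV_3E13_5809, was left out. Its leading members were secreted Wnt antagonists: Sfrp1 fell by 1.44 (SE 0.20, adjusted p = 0.00141), Frzb by 1.88 (SE 0.32, adjusted p = 0.00332) and Sfrp2 fell by 3.15 (SE 0.47, adjusted p = 0.00197), with no overlap between the doses for any of them. Dkk3, the next by p, fell by 2.27 (SE 0.47, adjusted p = 0.00902), and its groups overlapped.

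The 12 largest falls among genes with non-overlapping libraries were Comp, Ltbp2, Cilp, Prg4, Sfrp2, Timp1, Nox4, Thbs4, Piezo2, Tnc, Wisp2 and Serpina3n. They were drawn from 539 genes that met the rule, 307 higher and 232 lower. The rule asks for an average of 5 CPM, and 9 of the 12 averaged less than that in AAV_1E14, so they met it through the low-dose group in which they were high. Comp, the cartilage oligomeric matrix protein, was at 0.92, 1.54, 2.54, 0.67 and 2.19 CPM in AAV_1E14, against 5.93, 21.3 and 73.8 CPM for the lowest, median and highest of AAV_3E13 (log2 fold change -4.02, SE 0.65, adjusted p = 0.00268). Nox4, an NADPH oxidase that makes hydrogen peroxide and is induced by TGF-beta, was at 3.03, 3.22, 5.81, 4.66 and 3.29 CPM in AAV_1E14, against 14.1, 30.9 and 46.6 CPM in AAV_3E13 (log2 fold change -2.92, SE 0.33, adjusted p = 0.000679). Both were low in all 5 high-dose animals. Piezo2, a stretch-activated cation channel, fell by 2.38 (SE 0.34, adjusted p = 0.00149), and the matricellular proteins tenascin-C (Tnc) and thrombospondin-4 (Thbs4) fell by 2.33 (SE 0.48, adjusted p = 0.00862) and 2.51 (SE 0.51, adjusted p = 0.00795). The smallest p of all belonged to a gene outside the naming rule, Igfbp7, chosen after its values were seen. This secreted binding protein of insulin-like growth factors was at 53.1, 49.2, 57.2, 53.2 and 64.9 CPM in AAV_1E14, against 110, 148 and 165 CPM in AAV_3E13 (log2 fold change -1.38, SE 0.11, adjusted p = 3.27e-05).

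**Figure D3:**
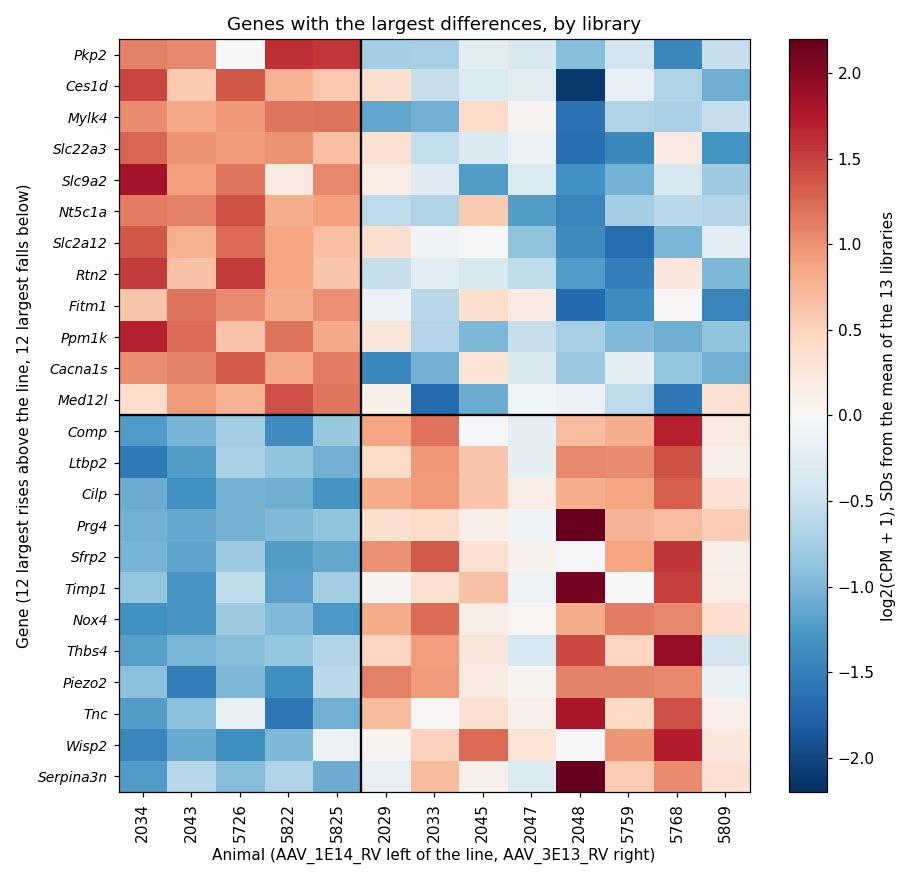
Expression of the 12 genes with the largest rise (above the line) and the 12 with the largest fall (below it) in the 5 AAV_1E14 libraries (left) and the 8 AAV_3E13 libraries (right), as log2(CPM + 1) in SDs from the mean of the 13 libraries. Blue is low and red is high. The groups do not overlap for any of the 24 genes, because the genes were chosen among those without overlap. Within AAV_3E13, AAV_3E13_2048 is extreme for Prg4 and Serpina3n.

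Markers of a stretched or failing ventricle were lower at the high dose, with more overlap between animals. Of 18 natriuretic and heart failure genes tested, 5 were lower (Nppa, Nppb, Ankrd1, Nmrk2 and Srpx2) and 1 was higher (Corin), with a median of -0.61. Under the unequal-variance test on log2(TPM + 1), 3 were lower. Nppa, which encodes atrial natriuretic peptide, was at 17.0, 5.61, 24.6, 28.6 and 35.9 CPM in AAV_1E14, against 30.8, 103 and 331 CPM for the lowest, median and highest of AAV_3E13. Only AAV_1E14_5825 reached into the low-dose range, above the low-dose AAV_3E13_2047 and AAV_3E13_5809 (log2 fold change -2.64, SE 0.62, adjusted p = 0.0156). WT hearts were at 3.84 to 46.8 CPM in 8 animals and at 426 CPM in the other. Nppb, the gene of brain natriuretic peptide, was at 41.7, 17.8, 65.1, 35.7 and 36.3 CPM in AAV_1E14, against 52.4, 122 and 233 CPM in AAV_3E13. AAV_1E14_5726 was the one inside the low-dose range (log2 fold change -1.70, SE 0.36, adjusted p = 0.00991). Corin, the protease that activates both peptides, went the other way: it was at 818, 638, 774, 842 and 747 CPM in AAV_1E14 and between 395 and 620 CPM in AAV_3E13, without overlap (log2 fold change 0.64, SE 0.11, adjusted p = 0.0031).

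Nppa and Nppb lie beside each other on chromosome 4, and their promoters are shown because the 2 genes fell together. The 300 bases around each start (250 before and 50 after it) come from RefSeq on GRCm38.p6, chr4:148000472-148000771 for Nppa and chr4:147985650-147985949 for Nppb, both on the plus strand. Capitals mark matches on either strand to any of 5 motifs: AP-1 (TGANTCA), TEAD (GGAATG), the ERR element (AAGGTCA), NRF1 (GCGCA and GCGC with any 1 base between them) and the TATA box (TATAAA).
Nppa: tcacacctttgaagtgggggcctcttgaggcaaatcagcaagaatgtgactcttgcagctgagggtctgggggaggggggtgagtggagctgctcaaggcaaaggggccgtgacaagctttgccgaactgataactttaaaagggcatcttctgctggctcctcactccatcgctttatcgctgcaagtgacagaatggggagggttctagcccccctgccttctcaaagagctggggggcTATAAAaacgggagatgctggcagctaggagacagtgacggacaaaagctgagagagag
Nppb: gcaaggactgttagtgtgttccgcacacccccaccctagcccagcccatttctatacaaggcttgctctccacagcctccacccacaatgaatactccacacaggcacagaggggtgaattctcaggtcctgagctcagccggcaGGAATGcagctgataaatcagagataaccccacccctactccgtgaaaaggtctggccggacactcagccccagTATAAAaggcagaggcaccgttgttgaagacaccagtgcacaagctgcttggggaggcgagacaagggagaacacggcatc
Both windows held the TATA box letters, which 13.6% of all 32841 windows of this length held, and that of Nppb also held the TEAD letters, as did 14.7% of all windows.

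Ankrd1, a stretch-responsive ankyrin repeat protein of the sarcomere, was at 118, 58.9, 115, 76.8 and 131 CPM in AAV_1E14, against 129, 395 and 503 CPM for the lowest, median and highest of AAV_3E13 (log2 fold change -1.80, SE 0.33, adjusted p = 0.005). AAV_1E14_5825 slightly exceeded the lowest low-dose animal. Sprr1a, a small proline-rich protein that stressed cardiomyocytes make, was at 0 in 2 of 5 high-dose animals and at 0.27 or 0.28 CPM in the other 3, against 1.08 to 4.69 CPM in AAV_3E13 (adjusted p = 0.00197). Myh7 and Acta1, the fetal myosin heavy chain and the skeletal alpha-actin that reappear in failing mouse hearts, were singled out after their values were seen, because neither passed. Myh7 was at 382, 3167, 378, 534 and 629 CPM in AAV_1E14, against 653, 3192 and 4914 CPM in AAV_3E13 (log2 fold change -1.39, SE 0.59, adjusted p = 0.149). A single high-dose animal, AAV_1E14_2043, was at the median of the low dose, and the other 4 lay below all 8 low-dose animals. Acta1 was at 11.3, 7.01, 72.8, 11.2 and 10.5 CPM in AAV_1E14, against 21.7, 61.8 and 138 CPM in AAV_3E13 (log2 fold change -1.70, SE 0.64, adjusted p = 0.103). Here it was AAV_1E14_5726, the one with the lowest Pkp2 of its group, that lay among the low-dose animals, and AAV_1E14_2043 did not.

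Within the low-dose group the same 3 animals, AAV_3E13_2029, AAV_3E13_2047 and AAV_3E13_5809, had the 3 lowest values of Myh7 (653, 1254 and 1018 CPM), of Nppa (59.6, 30.8 and 31.7 CPM) and of Ankrd1 (182, 213 and 129 CPM). For Acta1, too, they were the lowest, at 23.6, 28.3 and 21.7 CPM. Their Pkp2 levels of 266, 368 and 324 CPM did not set them apart from the other 5 low-dose animals, which ranged from 154 to 399 CPM.

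**Figure D4:**
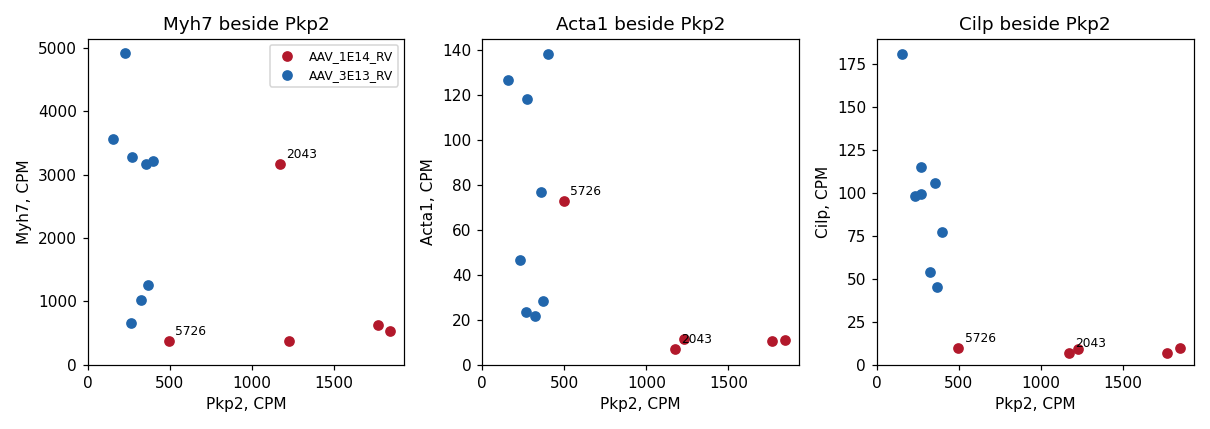
Myh7, Acta1 and Cilp (vertical axes, CPM) against Pkp2 (horizontal axis, CPM) in each right ventricle of AAV_1E14 (red) and AAV_3E13 (blue), with AAV_1E14_2043 and AAV_1E14_5726 marked. AAV_1E14_2043 stands out for Myh7 (3167 CPM) and AAV_1E14_5726 for Acta1 (72.8 CPM), whereas all 5 high-dose animals were below 10 CPM for Cilp.

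Many nuclear genes of mitochondrial energy metabolism were called higher at the high dose, with list medians of 0.37 to 0.52 on the log2 scale. Of 20 genes of the TCA cycle 17 were higher and 0 lower (median log2 fold change 0.48), of 21 genes of branched-chain amino acid breakdown 15 and 0 (median 0.50), of 34 genes of fatty acid uptake and oxidation 18 and 0 (median 0.52), of 42 nuclear genes of respiratory complexes II to V 25 and 0 (median 0.49), and of 35 nuclear genes of complex I 12 and 0 (median 0.37). All genes tested had a median of -0.03, and 5.02% of them were called higher. All 21 genes of branched-chain amino acid breakdown had a positive log2 fold change. The counts leaned on single high-dose animals: the TCA cycle had 8 calls without AAV_1E14_5822, 9 without AAV_1E14_2034 and 11 without AAV_1E14_5726, complexes II to V had 13 without AAV_1E14_2034 or AAV_1E14_5726 and 16 without AAV_1E14_5822 in place of 25, and complex I had 5 without AAV_1E14_5726, 6 without AAV_1E14_2034, 7 without AAV_1E14_5822 and 19 without the low-dose AAV_3E13_2047. Under the unequal-variance test on log2(TPM + 1), 6 TCA cycle, 7 branched-chain, 6 fatty acid, 14 complex II to V and 3 complex I genes were higher.

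Branched-chain amino acids are broken down in the mitochondrial matrix by a dehydrogenase complex that a phosphatase switches on. That phosphatase, Ppm1k, had the smallest p of its list and was at 643, 543, 439, 537 and 475 CPM in AAV_1E14, against 240, 264 and 384 CPM for the lowest, median and highest of AAV_3E13. Every high-dose animal exceeded every low-dose animal (log2 fold change 0.90, SE 0.11, adjusted p = 0.00112). Dbt, the E2 core of the dehydrogenase, was at 112, 110, 89.9, 113 and 95.9 CPM in AAV_1E14, against 56.4, 67.6 and 80.8 CPM in AAV_3E13 (log2 fold change 0.61, SE 0.09, adjusted p = 0.00223). Later steps moved alike: Ivd, of leucine breakdown, rose by 0.67 (SE 0.12, adjusted p = 0.00355), Aldh6a1, of valine breakdown, by 0.70 (SE 0.10, adjusted p = 0.00131), and Pccb, a subunit of propionyl-CoA carboxylase, by 0.53 (SE 0.10, adjusted p = 0.00651). None of these 3 overlapped between the doses.

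Pccb and Hibadh, a dehydrogenase of valine breakdown that rose by 0.51 (SE 0.10, adjusted p = 0.0082) without overlap, are shown as promoters of this list that hold the NRF1 letters, a motif common before nuclear genes of mitochondria. The windows are chr9:101034835-101035134 and chr6:52640251-52640550 of GRCm38.p6 (RefSeq), both on the minus strand and written 5′ to 3′, with the same 5 motifs in capitals.
Pccb: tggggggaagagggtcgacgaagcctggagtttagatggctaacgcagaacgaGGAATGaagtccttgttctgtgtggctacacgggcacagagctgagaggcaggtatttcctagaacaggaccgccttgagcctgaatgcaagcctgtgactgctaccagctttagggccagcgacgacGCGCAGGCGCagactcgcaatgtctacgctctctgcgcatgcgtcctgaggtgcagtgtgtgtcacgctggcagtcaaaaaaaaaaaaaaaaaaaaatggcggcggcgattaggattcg
Hibadh: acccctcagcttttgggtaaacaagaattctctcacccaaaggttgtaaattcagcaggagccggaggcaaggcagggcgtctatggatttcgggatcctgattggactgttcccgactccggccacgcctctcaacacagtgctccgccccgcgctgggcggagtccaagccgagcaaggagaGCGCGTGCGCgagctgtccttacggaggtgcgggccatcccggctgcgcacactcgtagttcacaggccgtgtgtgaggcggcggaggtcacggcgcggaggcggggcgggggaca
Of the 32 TCA cycle and branched-chain genes called higher, 27 had a window in the RefSeq table, 36 windows in all, of which 5 held the NRF1 letters (13.9%, beside 4.6% of all windows), 2 the TEAD letters (5.56%, beside 14.7%), 1 the AP-1 letters (2.78%, beside 7.81%), 1 the ERR letters (2.78%, beside 4.72%) and 0 the TATA box. Members of the same lists that were not called were not examined, so these shares say nothing about dose. Of the 40 collagen, matricellular and proteoglycan genes called lower 24 had a window (60%, against 84.4% of the higher genes), and no motif share is given for a set with windows for under 80% of its genes.

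In the TCA cycle, Cs, which encodes citrate synthase, was at 1113, 940, 1374, 1136 and 1024 CPM in AAV_1E14, against 539, 742 and 865 CPM for the lowest, median and highest of AAV_3E13 (log2 fold change 0.61, SE 0.12, adjusted p = 0.00781). Ogdh, the E1 subunit of the 2-oxoglutarate dehydrogenase complex, was at 3940, 3704, 4057, 3865 and 3320 CPM in AAV_1E14, against 1949, 2541 and 3093 CPM in AAV_3E13 (log2 fold change 0.56, SE 0.11, adjusted p = 0.00661). Both were higher in every high-dose animal than in any low-dose animal. Sdhb, a subunit of succinate dehydrogenase that belongs to the cycle and to complex II, rose by 0.61 (SE 0.11, adjusted p = 0.00471). In fatty acid oxidation, Echs1, which hydrates the shorter enoyl-CoAs, rose by 0.62 (SE 0.10, adjusted p = 0.00259), Acaa2, the matrix thiolase, by 0.73 (SE 0.13, adjusted p = 0.0043), and Slc25a20, the carrier that brings acylcarnitines into the matrix, by 0.73 (SE 0.14, adjusted p = 0.00554). In the respiratory chain the Rieske protein gene Uqcrfs1 rose by 0.61 (SE 0.10, adjusted p = 0.00335), the ATP synthase gene Atp5a1 by 0.49 (SE 0.09, adjusted p = 0.00557) and the complex I gene Ndufs1 by 0.49 (SE 0.09, adjusted p = 0.00557).

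Of 18 regulators of energy metabolism, 8 were higher and 0 lower (median 0.39), with 3 left without AAV_1E14_5822 and 5 without AAV_1E14_2034 or AAV_1E14_5726. Ppara, the nuclear receptor that drives fatty acid oxidation genes, was at 79.5, 71.9, 99.8, 89.5 and 82.5 CPM in AAV_1E14, against 44.0, 56.0 and 61.9 CPM for the lowest, median and highest of AAV_3E13. The groups did not overlap (log2 fold change 0.62, SE 0.11, adjusted p = 0.00389). Perm1, a muscle regulator of mitochondrial genes, rose by 0.59 (SE 0.13, adjusted p = 0.0117). The nuclear receptor Esrrg rose by 0.44 (SE 0.11, adjusted p = 0.0188), a call that was lost in 4 alternatives. The insulin-sensitive glucose transporter Slc2a4 rose by 0.66 (SE 0.13, adjusted p = 0.00651) and Hk2, which phosphorylates glucose, by 0.46 (SE 0.08, adjusted p = 0.00497), whereas Pfkp, the platelet-type phosphofructokinase, fell by 0.93 (SE 0.18, adjusted p = 0.00719). Other glycolytic genes mostly did not pass: of 23 tested, 4 were higher and 1 was lower, and 2 were higher without AAV_1E14_2034, AAV_1E14_5726, AAV_1E14_5822, AAV_1E14_5825, AAV_3E13_2033, AAV_3E13_2048 or AAV_3E13_5759 and 1 under the unequal-variance test on log2(TPM + 1). Of 76 mitochondrial ribosomal proteins 64 had a positive log2 fold change (median 0.28). Of these 76, 5 were called higher and 0 lower, beside 5.02% of all genes. That count ran from 1 (without AAV_1E14_2034, AAV_1E14_5726 or AAV_1E14_5822) to 9 (without AAV_3E13_2047 or AAV_3E13_5768) and was 12 with DESeq2. Of 79 cytosolic ribosomal proteins 0 were higher and 1 was lower.

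No such rise was detected in the summed share of the transcripts made by mitochondria themselves. The 37 mitochondrially encoded genes took 28.9% ± 2.91 (SD, n = 5) of all counts in AAV_1E14 and 29.5% ± 3.06 (SD, n = 8) in AAV_3E13 (exact two-sided permutation test, p = 0.746), and the difference of -0.65 percentage points took the other sign, 0.63, without AAV_1E14_5726. The sum held members that leaned opposite ways. The largest, mt-Co1, which encodes a core subunit of cytochrome c oxidase, took 14.2 to 17.1% of counts in AAV_1E14 and 12.4 to 15.3% in AAV_3E13, with 4 of 5 high-dose animals above all low-dose animals. The protein-coding mt-Nd4 took 1.4 to 2.6% in AAV_1E14 and 1.9 to 3.9% in AAV_3E13. The ribosomal RNA mt-Rnr2 took 0.26 to 0.42% in AAV_1E14 and 0.33 to 1.33% in AAV_3E13. The library kit named in the study removes ribosomal RNA, so the mt-Rnr2 share need not reflect expression. What set that share was not tested. The doses overlapped for each of the 37 genes, though most of these were transfer RNA genes at or near 0 in both groups, which could hardly have separated. For the nuclear metabolic genes, the low-dose hearts were the ones close to WT. The TCA cycle genes summed to 14578 to 17401 CPM in AAV_1E14, against 9196 to 13955 CPM in AAV_3E13, with 8425 to 14521 CPM in WT. The branched-chain genes summed to 3300 to 3842 CPM in AAV_1E14, against 1947 to 2729 CPM in AAV_3E13, with 1753 to 2746 CPM in WT. No high-dose animal overlapped a WT animal in these 2 sums, whereas some did in the respiratory chain. Complexes II to V summed to 16931 to 21977 CPM in AAV_1E14, against 11197 to 16636 CPM in AAV_3E13, with 11015 to 17891 CPM in WT, and complex I to 5112 to 6312 CPM in AAV_1E14, against 3684 to 5287 CPM in AAV_3E13, with 3535 to 5297 CPM in WT. The summed cardiomyocyte markers were also higher, at 135599 to 161385 CPM in AAV_1E14, against 100851 to 134618 CPM in AAV_3E13, and 3 of the 6 were called higher. The part that the share of cardiomyocyte RNA had in the metabolic result was not tested.

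Calcium handling and repolarization genes of the cardiomyocyte were among those that rose. Of 23 calcium cycling genes tested 6 were higher and 1 was lower (median 0.25). Atp2a2, the calcium pump SERCA2 that refills the sarcoplasmic reticulum, was at 19512, 15343, 19016, 17609 and 15052 CPM in AAV_1E14, against 7711, 10237 and 12835 CPM for the lowest, median and highest of AAV_3E13. All 5 high-dose animals exceeded all 8 low-dose animals and also the WT range of 8248 to 13482 CPM (log2 fold change 0.70, SE 0.11, adjusted p = 0.00259). Phospholamban (Pln), the inhibitor of that pump, was at 9683, 6742, 7015, 7993 and 6939 CPM in AAV_1E14, against 4195, 4629 and 5587 CPM in AAV_3E13 (log2 fold change 0.63, SE 0.10, adjusted p = 0.00268), so that pump and inhibitor rose together. The calcium release channel Ryr2 rose by 0.58 (SE 0.09, adjusted p = 0.00259), without overlap. Sri, the small calcium-binding protein sorcin, fell by 0.37 (SE 0.10, adjusted p = 0.0258), a call that was lost in 6 alternatives, among them without AAV_1E14_2034.

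Of 22 sodium and potassium channel genes tested 9 were higher and 1 was lower (median 0.44). Kcnd2, a pore-forming subunit of the transient outward potassium current, was at 98.5, 67.0, 70.2, 78.5 and 59.5 CPM in AAV_1E14, against 29.4, 39.6 and 59.3 CPM for the lowest, median and highest of AAV_3E13 (log2 fold change 0.81, SE 0.16, adjusted p = 0.00657). Kcnip2, the auxiliary subunit KChIP2 of the same current, was at 91.0, 103, 113, 94.3 and 92.2 CPM in AAV_1E14, against 33.4, 59.5 and 80.3 CPM in AAV_3E13 (log2 fold change 0.74, SE 0.15, adjusted p = 0.00718). The groups did not overlap for either, though for Kcnd2 the gap was small. Kcnj2, the channel of the inward rectifier current that sets the resting potential, rose by 0.69 (SE 0.12, adjusted p = 0.00412), and Kcnj3 and Kcnj5, which form the acetylcholine-gated channel, rose by 0.72 (SE 0.14, adjusted p = 0.00661) and 0.55 (SE 0.11, adjusted p = 0.00868). The gene called lower, Scn3b, encodes a sodium channel beta subunit, and its call was lost in 10 alternatives, among them without AAV_1E14_2034, AAV_1E14_5822, AAV_1E14_5825, AAV_3E13_2033, AAV_3E13_2048, AAV_3E13_5768 or AAV_3E13_5809. Under the unequal-variance test on log2(TPM + 1), 3 channel genes and 3 calcium cycling genes were called higher.

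Sarcomeric genes moved less, with 4 of 24 higher and 1 lower, and the number higher was 2 without AAV_1E14_2034 or AAV_1E14_5822 and 7 without the low-dose AAV_3E13_2047. Tnni3, the adult cardiac troponin I, rose by 0.65 (SE 0.13, adjusted p = 0.00777). Myh6, the adult mouse myosin heavy chain, rose by 0.52 (SE 0.14, adjusted p = 0.026), a call that was lost in 6 alternatives. Tpm3, a cytoplasmic and slow muscle tropomyosin, fell by 0.46 (SE 0.09, adjusted p = 0.00651). Of cardiac transcription factors 4 of 20 were higher and 0 lower, a count that was 2 without AAV_1E14_2043 and 0 under the unequal-variance test on log2(TPM + 1), with Foxo3 at 0.49 (SE 0.08, adjusted p = 0.00253) and Klf15, a repressor of hypertrophic growth, at 0.85 (SE 0.21, adjusted p = 0.0211), a call that was lost without AAV_1E14_2043. Of the angiotensin genes, Ace, the converting enzyme, fell by 0.71 (SE 0.13, adjusted p = 0.00627), and the receptor gene Agtr1a rose by 0.66 (SE 0.17, adjusted p = 0.0276), a call that was lost without AAV_1E14_2034, AAV_1E14_2043, AAV_1E14_5822 or AAV_3E13_2033.

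The 12 largest rises among genes with non-overlapping libraries were Pkp2, Ces1d, Mylk4, Slc22a3, Slc9a2, Nt5c1a, Slc2a12, Rtn2, Fitm1, Ppm1k, Cacna1s and Med12l. After Pkp2, at 4.32-fold, they ran from 2.28-fold for Ces1d to 1.81-fold for Med12l, whose call was lost in 4 alternatives. Ces1d, a carboxylesterase that hydrolyzes triglyceride, was at 138, 82.4, 130, 91.9 and 83.7 CPM in AAV_1E14, against 17.3, 47.1 and 72.5 CPM for the lowest, median and highest of AAV_3E13 (log2 fold change 1.19, SE 0.24, adjusted p = 0.00822). Mylk4, a myosin light chain kinase family member, was at 240, 219, 229, 256 and 258 CPM in AAV_1E14, against 66.6, 105 and 177 CPM in AAV_3E13 (log2 fold change 1.09, SE 0.18, adjusted p = 0.00328). The other named rises include Fitm1, an endoplasmic reticulum protein of lipid droplet formation (0.91, SE 0.22, adjusted p = 0.0174), Slc2a12, the glucose transporter GLUT12 (0.94, SE 0.20, adjusted p = 0.00995), and Nt5c1a, a cytosolic nucleotidase that makes adenosine from AMP (0.95, SE 0.17, adjusted p = 0.00457).

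Few immune genes outside complement were called, though most members of the immune lists had a negative log2 fold change. Of 16 complement genes tested 6 were lower and 1 was higher (median -0.81). Serping1, the C1 inhibitor, was at 97.6, 114, 102, 102 and 115 CPM in AAV_1E14, against 148, 183 and 260 CPM for the lowest, median and highest of AAV_3E13, without overlap (log2 fold change -0.88, SE 0.14, adjusted p = 0.00259). The 1 gene that was higher, Cd59a, encodes an inhibitor of the membrane attack complex on the cell surface (0.51, SE 0.13, adjusted p = 0.0268). The Cd59a call was lost in 5 alternatives. Of 29 macrophage and monocyte genes 4 had a positive log2 fold change (median -0.46). Of the 29, 3 were lower and 0 higher, beside 4.95% of all genes lower, and 1 was lower without AAV_1E14_2034, AAV_1E14_5726 or AAV_1E14_5825. They included Ms4a7 (-1.10, SE 0.19, adjusted p = 0.00349) and Lgals3, or galectin-3 (-1.93, SE 0.50, adjusted p = 0.0265), whose call was lost in 6 alternatives, among them without AAV_1E14_2034, AAV_1E14_5726, AAV_1E14_5822 or AAV_1E14_5825, while the summed macrophage markers (Csf1r, C1qa and Adgre1) overlapped at 72.5 to 115 CPM in AAV_1E14 and 94.1 to 178 CPM in AAV_3E13. Of 25 chemokine and cytokine genes 1 had a positive log2 fold change (median -0.54), and 2 were called lower, and 0 without AAV_1E14_5726. The alarmin Il33 was at -1.56 (SE 0.38, adjusted p = 0.0182), a call that was lost without AAV_1E14_5726. Of 35 interferon-stimulated genes 0 were called (median -0.24), as were 0 of 16 genes that sense nucleic acids, 0 of 24 endothelial genes and 0 of 17 circadian clock genes.

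Of 21 cell cycle genes tested 5 were lower and 0 higher (median -0.68), but this count was 2 or 3 when AAV_1E14_2034, AAV_1E14_5726, AAV_1E14_5822 or AAV_1E14_5825, or AAV_3E13_2029, AAV_3E13_2033, AAV_3E13_2048, AAV_3E13_5759 or AAV_3E13_5768, was left out. Mki67, the Ki-67 proliferation antigen, was at 5.67, 9.25, 6.29, 5.19 and 13.2 CPM in AAV_1E14, against 10.8, 19.9 and 27.7 CPM for the lowest, median and highest of AAV_3E13, with 1 high-dose animal inside the low-dose range (log2 fold change -1.35, SE 0.27, adjusted p = 0.0072).

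The left ventricles (LV) of the same 13 animals gave the comparison a counterpart. There 2575 of 13529 genes were called (19%), 1458 higher (10.8%) and 1117 lower (8.26%). Of 674 genes called higher in the RV and tested in the LV, 543 were called higher in the LV, and of 657 called lower in the RV 450 were called lower in the LV. The LV calls came to 1428 without AAV_1E14_2034 and to 1179 with the unequal-variance test, 795 of them higher and 384 lower. Respiratory complex I had 31 of 35 genes higher in the LV, against 12 of 35 in the RV, mitochondrial ribosomal proteins 37 of 76, against 5 of 76, and complement 12 of 16 lower, against 6 of 16. Nppb differed by -0.41 (adjusted p = 0.241) and Ankrd1 by -0.52 (adjusted p = 0.24) in the LV, beside -1.70 and -1.80 in the RV.

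No difference between the ventricles in the effect of dose was established for any gene by edgeR. Of 14205 genes tested for the difference between the RV and the LV dose effects, 0 were called (0%, smallest adjusted p = 0.890), with 565 at an unadjusted p under 0.05. DESeq2 called 10, of which 3 had the larger value in the RV and 7 in the LV. With the animal as a block that pairs its ventricles, edgeR again called 0, with 845 at an unadjusted p under 0.05. The longer lists of calls in the LV therefore do not by themselves show that complex I, ribosomal or natriuretic genes answered dose differently in the 2 ventricles.

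**Figure D5:**
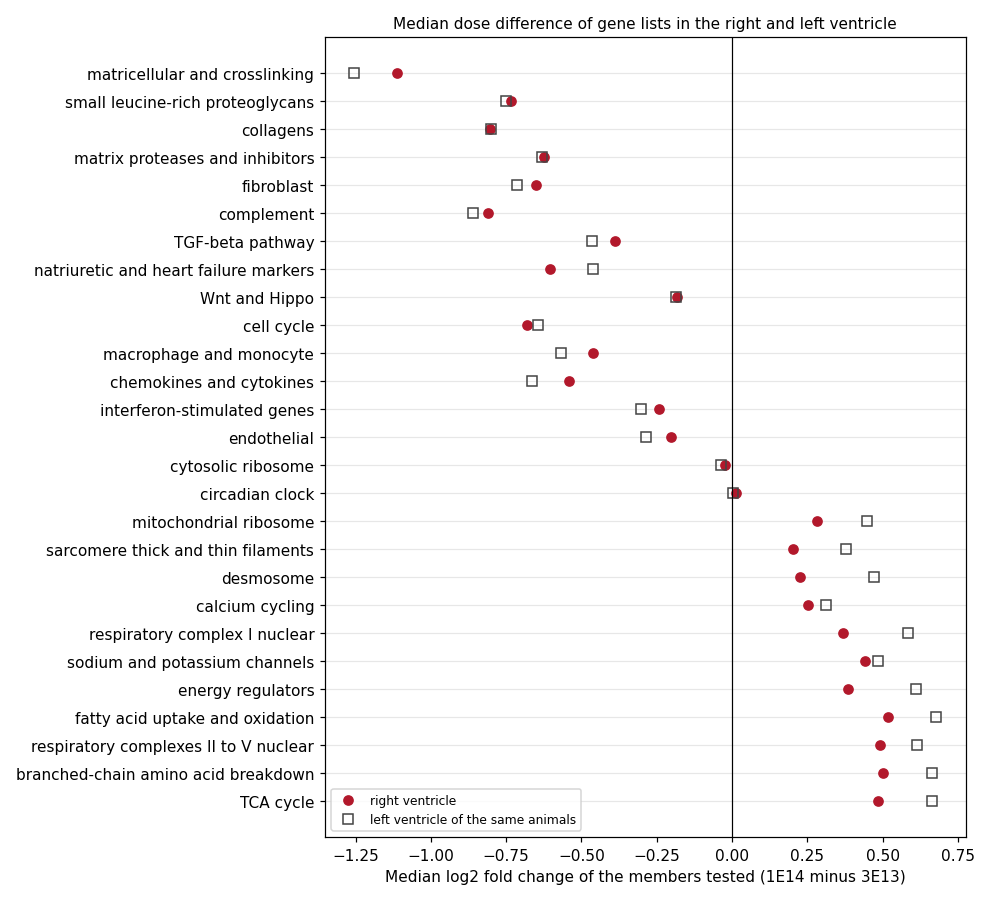
Median log2 fold change (AAV_1E14 minus AAV_3E13) of the tested members of each gene list in the right ventricle (filled circles) and in the left ventricle of the same animals (open squares). The medians have the same sign in both ventricles for 27 of the lists drawn, from -1.11 in the RV for matricellular and crosslinking genes to 0.52 for fatty acid uptake and oxidation.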

How the data were processed

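RNA from the right and left ventricles of 32 mice had been sequenced, 1 library per ventricle and 64 in all, and replicates are separate animals by label. The authors' pipeline, per the methods and the submitters' processing notes, was fastp for trimming, then Salmon 1.8.0 on a GRCm39 transcriptome, then tximport to gene level. The estimated counts as deposited are neither normalized nor all whole. The deposited TPM table, in transcripts per 1e+06, and the deposited table of effective lengths (bases, a score here) come from the same runs. The labels speak of polyadenylated RNA and the protocol of a ribosomal depletion kit, so the selection is uncertain, and changes in transcript length or poly(A) use are not seen at gene level. Estimated counts were rounded, 1 row with no gene name (at most 0.00136% of a library) and the 37 mitochondrially encoded genes were left out, and libraries of 5.81 M to 9.14 M counts entered edgeR 4.0.16 under R 4.3.3 (filterByExpr, TMM, quasi-likelihood F test). The fit used the 2 groups compared and no covariate, and Benjamini-Hochberg adjustment covered all genes tested (threshold 0.05). The code was tested on simulated data. Log2 fold changes are AAV_1E14 minus AAV_3E13, with SE. Levels of Pkp2 and the mitochondrially encoded share were compared by exact permutation tests over 1287 regroupings.

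The 55 gene lists held 1274 symbols, and 1271 were found, 13 by a synonym. Named genes were Pkp2, the study's 5 RT-qPCR genes (Timp1, Nppa, Nppb, Col3a1, Col1a1), the 12 largest rises and 12 largest falls among genes that were called, had no overlap between groups and averaged at least 5 CPM (without sex-linked genes, Gm and Rik symbols), and up to 5 members of each list with the smallest p. Further members of the shorter lists were named after their values were seen. Some members that the rule selects are not reported here. The members and the lists were chosen with earlier results of these data known. Alternatives were DESeq2 1.42.0, RLE factors, no filter, mitochondrial genes kept, an offset from effective lengths, the unequal-variance test on log2(TPM + 1), all groups in the fit, Xist as a covariate, limma 3.58.1 voom with quality weights, and leaving out each animal. Animal numbers pair the ventricles by label, and deviations of an animal's RV and LV from their group means correlated at 0.0405 to 0.197 (median 0.116).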

Additional observations from a re-analysis of the deposited data

Results flagged for a closer look

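In 228 sets of values, each a named gene or the mitochondrial share in 1 group, 15 had an animal far from all others by Dixon's criterion, and chance alone gives about 1 set in 20. Of the 15, 4 came from the high-dose AAV_1E14_5726, 4 from the low-dose AAV_3E13_2048 and 3 from the low-dose AAV_3E13_5768. AAV_1E14_5726, which also had the lowest Pkp2 of its group, had the highest Acta1 (72.8 CPM, others 7.01 to 11.3) and Perm1 (334 CPM, others 254 to 274), the lowest Kcnj3 (270, others 351 to 382) and the lowest mitochondrially encoded share (23.8%, others 29.5 to 31.1). AAV_1E14_2043 had a Myh7 of 3167 CPM (others 378 to 629), and AAV_1E14_5825 a Wisp2 of 5.07 CPM (others 1.19 to 2.13).

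AAV_3E13_2048 had the highest Prg4 of AAV_3E13 (241.9 CPM, the others at 19.7 to 48.3), the highest Serpina3n (377, others 38.4 to 125), the highest Tgfbr2 (230, others 132 to 170) and the highest Il33 (97.3, others 15.4 to 43.3). Prg4 encodes lubricin, Serpina3n an acute-phase protease inhibitor and Il33 an alarmin of stromal cells. At the low dose AAV_3E13_2045 was highest for Nt5c1a (14.6 CPM, others 6.35 to 9.18), AAV_3E13_2029 for Ppm1k (384, others 240 to 294) and AAV_3E13_5768 for Ms4a7 (26.5, others 12.4 to 18.1) and Meox1 (40.7, others 12.7 to 24.5), and AAV_3E13_5768 also had the lowest mitochondrially encoded share (22.9%, others 28.6 to 33.5).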

How the results depend on the processing

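Of the alternatives for the RV count of 1341 genes, the unequal-variance test on log2(TPM + 1), which also leaves out TMM scaling, gave the lowest, 508. Leaving out 1 animal gave 703 to 1586, with 703 without AAV_1E14_2034, 703 without AAV_1E14_5822 and 773 without AAV_1E14_5726, where the group of 5 becomes a group of 4. The other settings gave 950 (no filter) to 1947 genes (DESeq2), and no gene called in the comparison took the opposite call in any setting. The LV count of 2575 was 1179 with the unequal-variance test and 1428 to 2877 with 1 animal left out. For the difference of the dose effect between ventricles, with 0 calls, DESeq2 gave 10. The animal as a replicate block, which pairs the ventricles, gave 0, as did each left-out animal, and 5 of 13 animals had an RV that correlated best with their own LV. Pkp2 kept a difference in log2(CPM + 1) of 1.88 to 2.35 with 1 animal left out. The mitochondrially encoded share kept an exact permutation p above the threshold and ran from -1.59 to 0.63 percentage points with 1 animal left out, changing sign (0.63, p = 0.707) without AAV_1E14_5726. The cause was not tested. With all RV groups in the fit, the TCA cycle had 11 genes higher and complex I 5, in place of 17 and 12. Of 2486 alternative values for 113 named genes, 2361 stayed on their side of the threshold, 119 lost it, 6 gained it and 0 changed direction, and Tgfbr3 and Top2a lost theirs most often (14 settings each). Depth limits genes near 1 CPM, such as Sprr1a and Timp1 in AAV_1E14.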
